A study of Mus musculus with 6 samples.

Results

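The 9 genes followed here belong to the interferon receptors and the factors below them, and were measured in mouse mammary epithelial cells after knockdown of Id4. They are Ifnar1, Ifnar2, Ifngr1, Ifngr2, Jak1, Stat2, Irf1, Irf7 and Irf9, taken from the table by gene symbol as members of the pathway. The rule uses no measured value, but the set was drawn up with earlier results of these data known. All 9 were found among the 25655 genes of the deposited count table, and all 9 passed the filter on low counts that left 13941 genes for testing. The cells were Comma-Dβ, an established mammary epithelial line, at passage 29. The NT group received an ON-TARGETplus non-targeting siRNA pool and the siID4 group a siGENOME pool against mouse Id4, each at 20 nM, with harvest at 48 hr and 3 biological replicates per group. All 6 samples were transfected, and the siRNA product line differed between the groups in every library, so its part and that of Id4 cannot be told apart. The labels do not say whether the replicates were separate cultures, so p-values measure the spread between these libraries, which may be technical.

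Type I interferons bind a receptor made of the chains IFNAR1 and IFNAR2, and interferon gamma binds one made of IFNGR1 and IFNGR2. Both receptors signal through the kinase JAK1, with TYK2 or JAK2 as its partner. Type I signalling brings STAT2 and IRF9 together in the complex ISGF3, which binds interferon-stimulated response elements (ISRE), while interferon gamma signalling acts mainly through gamma-activated sites (GAS). IRF1 and IRF7 are transcription factors whose own genes are interferon-inducible, and IRF7 drives the production of more type I interferon. Epithelial cells carry both receptors.

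The libraries held between 19.2 and 23.1 M counts. Id4, the siRNA target, was at 135, 114 and 118 CPM (counts relative to the library's scaled total) in NT replicates 1 to 3 and at 59.4, 62.2 and 48.2 CPM in siID4 replicates 1 to 3 (log2 fold change −1.11, SE 0.10, edgeR adjusted p = 8.65e-04). The 7 epithelial markers, Krt5, Krt14, Krt8, Krt18, Trp63, Epcam and Cdh1, were present and summed to between 2122 and 2636 CPM, with 2 called upward and 1 downward (2 and 4 with the block). Fibroblast markers were also high. Their 7 members summed to 2514 to 2750 CPM in NT and 3575 to 3689 CPM in siID4, with 3 called upward and 1 downward of 6 tested (4 and 2 with the block). Beside these marker counts, 9.55% of all genes tested were called in either direction, and 36.1% with the block. Col1a1, Col1a2 and Pdgfrb were higher in siID4 (Col1a1 at 1171 and 1817 CPM, Pdgfrb at 244 and 327 CPM on average), Pdgfra was lower (56.0 and 36.3 CPM), and Dcn was at 62.6 and 49.1 CPM. Thy1 was under 1 CPM in both groups on average, and Lum had 6 counts over all 6 libraries. The 9 leukocyte markers summed to 3.12 to 3.16 CPM in NT and 3.49 to 4.12 CPM in siID4, with 4 counts of Ptprc, the pan-leukocyte marker, in all, and the 5 endothelial markers to 0.470 to 0.748 CPM and 1.23 to 1.49 CPM. Kdr, the 1 endothelial gene tested, was not called in edgeR without the block and was called with it (adjusted p = 0.0106). The part of these markers in the differences given here was not tested. In these bulk samples, a change in the share of cells and a change in RNA per cell cannot be told apart.

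Levels of the transcription factors were higher in siID4, while those of the receptor chains and Jak1 lay on both sides of NT. Irf7 had the largest difference of the 9, 2.23-fold higher in siID4, followed by Stat2 and Irf9 at 1.41-fold each and Irf1 at 1.21-fold. Ifnar2 was 1.16-fold higher, Ifnar1 was within 1.5% of its NT level, and Ifngr1, Ifngr2 and Jak1 were 7.9%, 16.1% and 7.5% lower. None of these passed edgeR's quasi-likelihood test after adjustment over all genes. The count was 0 of 9 called at an adjusted p under 0.05, beside 9.55% of all genes tested in either direction and 4.62% upward. Before adjustment 7 of the 9 had a p under 0.05, Ifngr2 and Jak1 lower and the others higher, beside 3567 of the 13941 genes tested. The adjusted p-values of 4 genes with higher levels lay close above the threshold, from 0.0522 for Stat2 to 0.0702 for Irf9. DESeq2 called 4 of the 9 and limma-voom 3, all upward. Over the 13941 genes tested, DESeq2 called 1495 (697 upward) and limma-voom 1332 (655 upward).

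Same-numbered NT and siID4 libraries deviated together (correlation across genes 0.51, 0.16 and 0.45), and a fit that takes the replicate number as a block removes that shared part. The labels do not say what same-numbered libraries share. The block rests on these correlations from the same data, which were weakest for number 2, so its calls depend on an assumed pairing. With the block, 5 of the 9 rose (Irf7, Stat2, Irf9, Irf1 and Ifnar2) and 2 fell (Ifngr2 and Jak1), beside 36.1% of all genes called with the block in either direction and 17.9% upward. In CPM, the groups did not overlap for those same 7 genes, 5 of them higher in siID4, beside 30.9% of all genes without overlap and 15.5% without overlap and higher. The median log2 fold change of the 9 was 0.21, and that of all genes tested was 0.00.

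**Figure D1:**
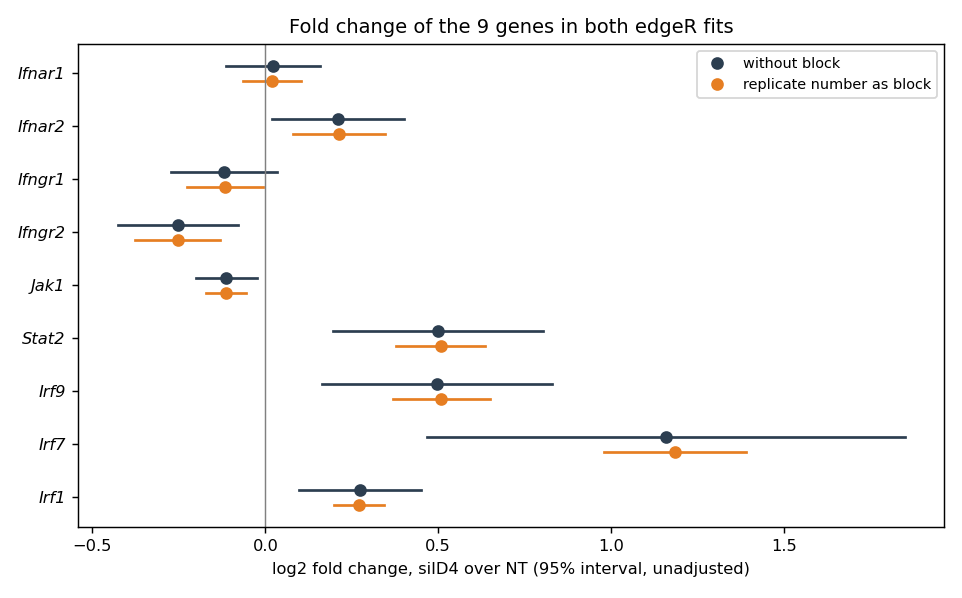
Log2 fold change (x axis, siID4 over NT) of the 9 genes with unadjusted 95% intervals, from the edgeR fit without a block and the fit with the replicate number as a block. The estimates hardly differ between the fits, while the intervals of all 9 genes are narrower with the block, and only Ifnar1 and Ifngr1 were not called with it.

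Of the type I receptor chains, Ifnar1, the chain that binds TYK2, showed no difference beyond its spread. It stood at 60.8, 63.7 and 61.9 CPM in NT and at 63.2, 66.9 and 59.0 CPM in siID4. The siID4 values lay on both sides of the NT values. The log2 fold change was 0.02 (95% interval −0.12 to 0.16, edgeR adjusted p = 0.873, with the block 0.763), so the interval leaves room for a small change in either direction.

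Ifnar2 encodes the chain that binds JAK1 and carries most of the interferon affinity. It stood at 20.0, 17.7 and 17.3 CPM in NT and at 20.7, 20.6 and 22.3 CPM in siID4. Every siID4 library lay above every NT library, by a narrow gap between NT replicate 1 and siID4 replicate 2. This is a log2 fold change of 0.21 (SE 0.08, edgeR adjusted p = 0.154), and the gene rose with the block (adjusted p = 0.0107). Within replicate numbers 1 to 3 the log2 difference was 0.05, 0.21 and 0.36.

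For the interferon gamma receptor mean levels were lower in siID4. Ifngr1, the ligand-binding chain, was at 37.3, 41.8 and 41.2 CPM in NT and 35.7, 36.9 and 38.1 CPM in siID4, with overlap between the groups. Its log2 fold change was −0.12 (95% interval −0.27 to 0.03, edgeR adjusted p = 0.319, with the block 0.0880). Ifngr2, the chain that brings in JAK2, was at 31.0, 28.2 and 29.4 CPM in NT and 23.2, 24.6 and 26.6 CPM in siID4. All siID4 libraries were below all NT libraries. This is a log2 fold change of −0.25 (SE 0.08, edgeR adjusted p = 0.0715), and it fell with the block (adjusted p = 0.00116).

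Ifnar2, Ifnar1 and Ifngr2 are neighbours. On GRCm38 they lie on the plus strand of chromosome 16, Ifnar2 at chr16:91372783-91405589, Ifnar1 at chr16:91485238-91507441 and Ifngr2 at chr16:91547072-91565623, in a stretch of 192.8 kb that also holds Il10rb, which encodes a shared chain of the interferon lambda and interleukin 10 receptors, and a predicted gene that overlaps Ifnar2 and Il10rb. Il10rb went from 12.2 to 13.6 CPM on average (log2 fold change 0.16, edgeR adjusted p = 0.391). Along the stretch the log2 fold changes were therefore 0.21, 0.16, 0.02 and −0.25. The ratio of Ifnar2 to Ifngr2 TPM (counts per length, scaled to a common sum) needs no scaling between libraries. It was 1.20, 1.17 and 1.10 in NT and 1.66, 1.56 and 1.56 in siID4, a mean of 1.15 ± 0.0533 against 1.59 ± 0.0582 (SD, n = 3 per group). The groups were well apart relative to their spread, with a log2 difference of 0.47 (exact two-sided permutation p = 0.1, the smallest that 3 against 3 libraries can give). Ifnar2 and Ifngr2 had the highest and lowest fold changes of the receptor chains followed here, each without overlap. Their ratio therefore had to separate the groups and is no further evidence beside those fold changes.

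Within each receptor the ratio of the chains overlapped between the groups. Ifnar1 over Ifnar2 in TPM was 1.25 ± 0.115 in NT and 1.10 ± 0.114 in siID4 (SD, n = 3 per group, exact permutation p = 0.3), and Ifngr1 over Ifngr2 was 1.76 ± 0.184 and 1.93 ± 0.0691 (exact permutation p = 0.2). Between libraries of the same number, Ifngr1 over Ifngr2 was higher in siID4 in all 3 pairs (1.55 and 1.99, 1.91 and 1.94, 1.81 and 1.85), while Ifnar1 over Ifnar2 was lower in 2 of 3. Over the 5 ratios computed, no exact p could fall under 0.1.

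**Figure D2:**
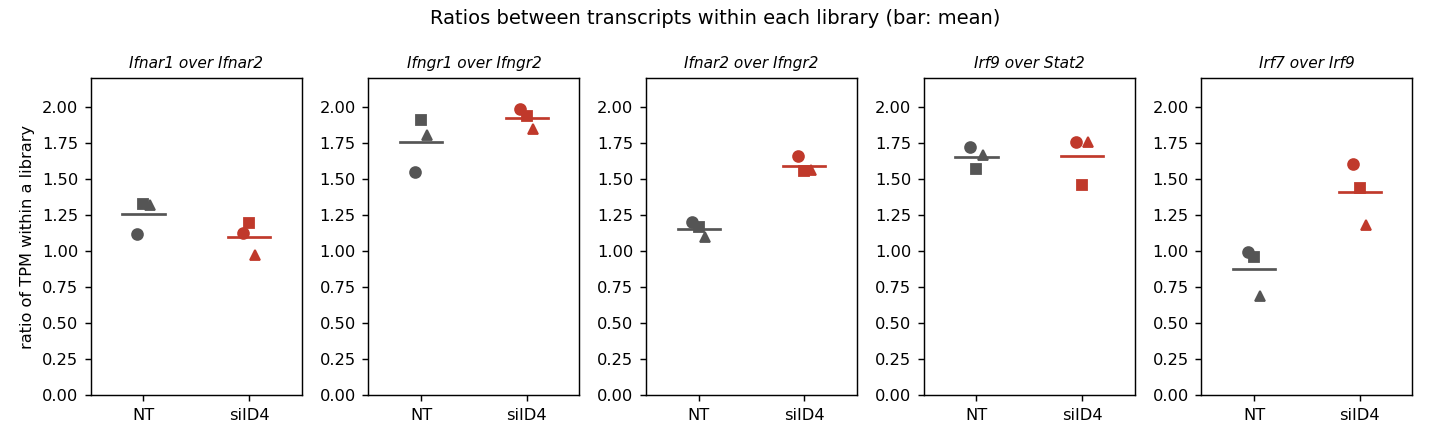
Ratio of TPM between 2 genes within each library (y axis, no unit, starting at 0) for NT and siID4, with circles, squares and triangles for replicate numbers 1, 2 and 3 and a bar at the mean. Ifnar2 over Ifngr2 and Irf7 over Irf9 separate the groups, while Irf9 over Stat2 has means of 1.65 and 1.66.

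Jak1, the kinase common to both receptors, had the smallest spread of the 9. It was at 199, 199 and 198 CPM in NT and 185, 184 and 182 CPM in siID4, so the groups were apart although the difference was small. This is a log2 fold change of −0.11 (SE 0.04, edgeR adjusted p = 0.108), and the gene fell with the block (adjusted p = 0.00208). The other kinases and chains of the pathway, Jak2, Jak3, Tyk2, Il10rb and Ifnlr1 (the specific chain of the interferon lambda receptor), gave log2 fold changes from −0.10 to 0.16, and 0 of 5 passed in edgeR. None of these 5 had an unadjusted p under 0.05, and none passed with DESeq2, limma-voom or the block. Tyk2 was at 38.6 CPM in NT and 37.1 CPM in siID4 on average, and Jak2 at 34.3 and 32.0 CPM.

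Stat2 and Irf9, which encode subunits of ISGF3, differed by nearly equal amounts. Stat2 was at 51.4, 43.0 and 34.7 CPM in NT and 62.9, 64.5 and 54.9 CPM in siID4. Irf9 was at 48.6, 37.1 and 31.8 CPM in NT and 60.7, 51.8 and 53.1 CPM in siID4. For both genes all siID4 libraries were above all NT libraries, and NT replicate 1 was the highest and NT replicate 3 the lowest of the NT libraries. Stat2 had a log2 fold change of 0.50 (SE 0.13, edgeR adjusted p = 0.0522) and Irf9 one of 0.50 (SE 0.14, edgeR adjusted p = 0.0702). Both rose with the block (adjusted p = 7.96e-06 and 2.37e-05). The ratio of Irf9 to Stat2 in TPM was 1.72, 1.57 and 1.67 in NT and 1.76, 1.46 and 1.76 in siID4, a log2 difference of 0.00 (exact permutation p = 1). Without NT replicate 1, both genes were called in edgeR (adjusted p = 0.00864 for Stat2 and 0.00413 for Irf9), and in the 5 other fits without one library neither was (0.0526 to 0.180 for Stat2 and 0.110 to 0.188 for Irf9).

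Irf7, the inducible factor of the type I loop, showed the widest range. It was at 33.8, 24.9 and 15.3 CPM in NT and 68.3, 52.2 and 43.8 CPM in siID4. The lowest siID4 library was above the highest NT library, and in both groups replicate 1 was highest and replicate 3 lowest. Its NT mean was 24.6 ± 9.26 CPM and its siID4 mean 54.8 ± 12.4 CPM (SD, n = 3 per group). In the edgeR fit it had a log2 fold change of 1.16 (SE 0.29, 95% interval 0.47 to 1.85, edgeR adjusted p = 0.0543). Within replicate numbers 1 to 3 the log2 difference was 1.00, 1.06 and 1.49, and the gene rose with the block (log2 fold change 1.18, SE 0.09, adjusted p = 7.96e-06). It also passed without NT replicate 1 (edgeR adjusted p = 0.0399), with DESeq2 (0.0195), with limma-voom (0.0224) and at a minimum mean of 5 CPM (0.0376). It did not pass in the 5 other fits without one library (edgeR adjusted p from 0.0651 to 0.172), with no filter on low counts (0.213) or under the other scalings. Against Irf9 in the same library, Irf7 stood at 0.993, 0.956 and 0.686 in NT and between 1.18 and 1.61 in siID4 as a ratio of TPM (exact permutation p = 0.1), so Irf7 differed by more than Irf9 in these libraries.

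Irf1, a direct target of interferon gamma signalling, was at 67.1, 74.3 and 75.5 CPM in NT and 78.0, 94.7 and 89.5 CPM in siID4. The groups did not overlap, but the order within NT was unlike that of Irf7, Stat2 and Irf9, since NT replicate 1 was the lowest here. This is a log2 fold change of 0.27 (SE 0.08, edgeR adjusted p = 0.0601), and the gene rose with the block (adjusted p = 2.56e-07). Without siID4 replicate 1 it was called in edgeR (adjusted p = 0.0209), and in the 5 other fits without one library it was not (0.0795 to 0.236).

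**Figure D3:**
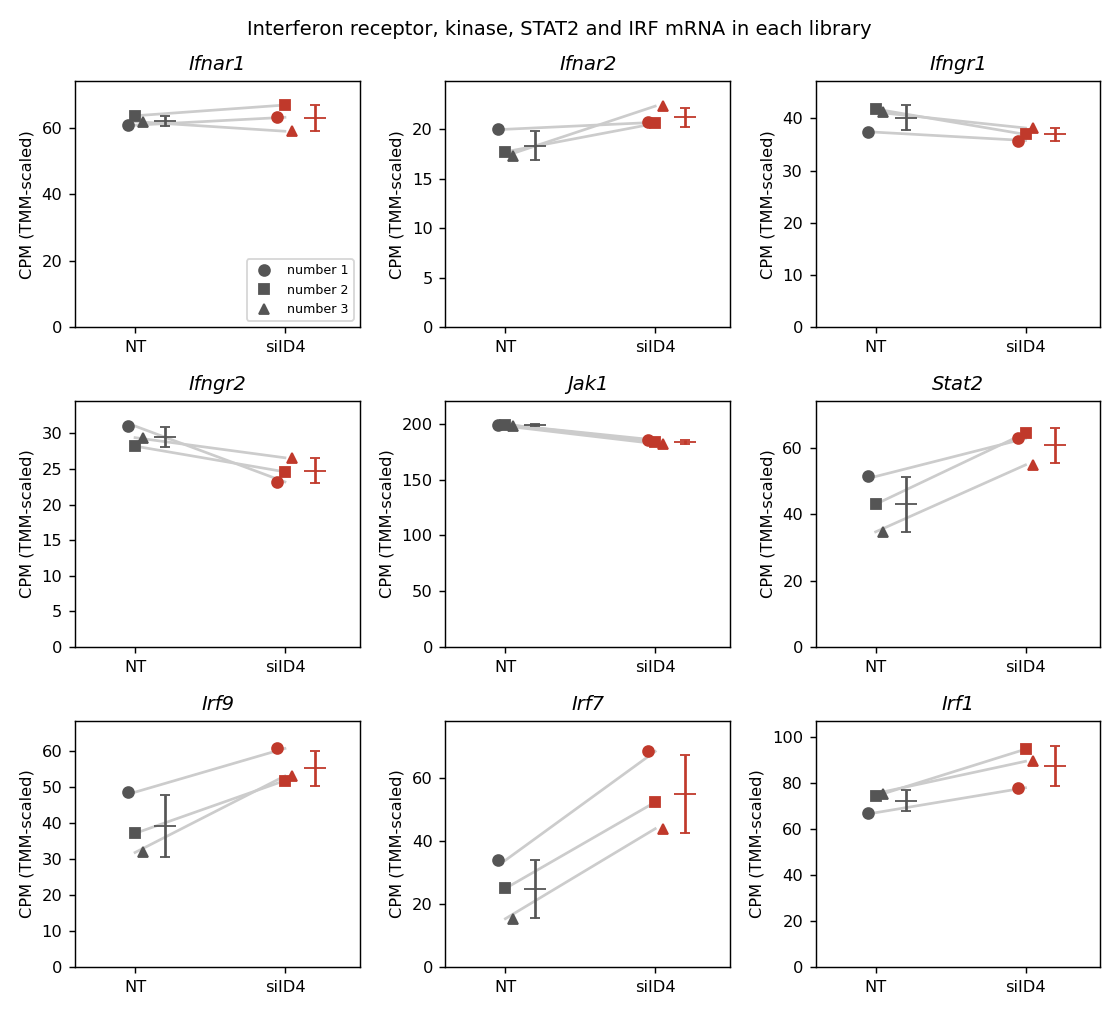
TMM-scaled CPM of each gene (y axis, starting at 0) in the NT and siID4 libraries, with grey lines joining libraries of the same replicate number and the mean ± SD beside the points. Irf7, Stat2 and Irf9 are spread in NT and higher in siID4 along all 3 lines, while Jak1 is nearly level within a group and Ifnar1 overlaps.

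The spread within NT set these genes apart from each other. The highest NT library exceeded the lowest by 2.21-fold for Irf7, 1.53-fold for Irf9 and 1.48-fold for Stat2, but by 1.05-fold for Ifnar1, 1.12-fold for Ifngr1 and Irf1, 1.10-fold for Ifngr2 and 1.16-fold for Ifnar2. Among the 7008 tested genes whose mean level lay within the range of the 9, the NT standard deviation of log2 CPM was smaller than that of Irf7 in 99.8%, of Irf9 in 98.3% and of Stat2 in 97.7%. For Jak1 it was smaller in 0.43%. In siID4 the spread of Irf7 was 1.56-fold, of Irf9 1.17-fold and of Stat2 1.18-fold.

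Per length, Jak1 and Irf1 were the most abundant of the 9 in both groups. In NT the mean TPM was 82.4 for Jak1, 74.7 for Irf1, 37.8 for Ifngr1, 31.1 for Ifnar1, 30.3 for Irf9, 27.3 for Irf7, 24.9 for Ifnar2, 21.6 for Ifngr2 and 18.3 for Stat2. The ranges of neighbours in this order overlapped from Ifnar1 through Irf9 and Irf7 to Ifnar2, and between Ifngr2 and Stat2. Those of Irf9 and Irf7 also overlapped that of Ifngr1, and that of Irf7 those of Ifngr2 and Stat2. The ranks below Jak1 and Irf1 are therefore not settled. In siID4 the mean TPM was 93.5 for Irf1, 78.9 for Jak1, 62.7 for Irf7, 44.2 for Irf9, 36.0 for Ifngr1, 32.7 for Ifnar1, 29.8 for Ifnar2, 26.8 for Stat2 and 18.7 for Ifngr2. Irf1 had passed Jak1 without overlap, and Irf7 had moved from the middle to the third place, its range overlapping that of Jak1 and not that of Irf9. Ifngr2 had become the least abundant, below Stat2 in every siID4 library.

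Promoter windows are shown for Stat2, Irf1 and Irf7, an ISGF3 subunit, the interferon gamma-responsive factor and the gene with the largest difference. They are from RefSeq on GRCm38.p6 and run from 250 bases before the start of transcription to 50 after it, in the direction of the gene. All 9 genes had at least 1 window, and Irf1 and Irf9 had 2. The motifs searched on both strands were an ISRE core, GAAANNGAAA, and a GAS, TTCNNNGAA, and matches are in capitals. The Stat2 window is chr10:128270248-128270547 on the plus strand, the Irf1 window chr11:53769764-53770063 on the plus strand and the Irf7 window chr7:141266375-141266674 on the minus strand.
Stat2: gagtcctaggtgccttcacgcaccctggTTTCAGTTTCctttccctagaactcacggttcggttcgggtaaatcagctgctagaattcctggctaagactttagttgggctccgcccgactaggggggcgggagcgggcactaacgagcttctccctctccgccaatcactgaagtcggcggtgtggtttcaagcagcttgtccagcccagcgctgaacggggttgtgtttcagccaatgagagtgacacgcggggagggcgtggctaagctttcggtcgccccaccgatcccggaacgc
Irf1: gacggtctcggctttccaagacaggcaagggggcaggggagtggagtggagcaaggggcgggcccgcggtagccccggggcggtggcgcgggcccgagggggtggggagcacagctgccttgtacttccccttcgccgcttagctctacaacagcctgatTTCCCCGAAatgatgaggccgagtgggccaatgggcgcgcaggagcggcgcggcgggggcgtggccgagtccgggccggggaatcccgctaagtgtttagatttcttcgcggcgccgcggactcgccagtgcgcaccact
Irf7: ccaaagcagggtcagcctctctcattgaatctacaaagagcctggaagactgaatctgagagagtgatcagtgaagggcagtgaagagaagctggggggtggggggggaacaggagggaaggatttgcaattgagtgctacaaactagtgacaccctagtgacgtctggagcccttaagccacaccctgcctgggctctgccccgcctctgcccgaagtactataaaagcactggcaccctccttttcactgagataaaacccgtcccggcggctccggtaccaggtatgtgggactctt

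The Stat2 window holds an ISRE match on the opposite strand, 222 to 213 bases before the start, and the Irf1 window a GAS match 90 to 82 bases before the start. The Irf7 window holds neither motif. Nor do the second Irf1 window and both windows of Irf9, another ISGF3 subunit, which are not shown. Ifnar2 has a GAS match, TTCCTGGAA, from 214 to 206 bases before its start, and Ifnar1 has TTCACGGAA across its start. Counted by gene, 1 of the 9 held the ISRE core, against 3.99% of 27025 genes, and 3 of the 9 the GAS, against 9.55%. Among interferon targets with a window, the ISRE core was in 9 of 22 ISGF3 targets and 11 of 21 interferon gamma targets. A match is a description of these letters and no measure of binding.

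The other genes of the pathway were taken from lists by role. Interferon genes were nearly silent. The 5 found in the table, Ifnb1, Ifna4, Ifne, Ifnz and Ifng, had 3, 0, 1, 0 and 1 counts over all 6 libraries, where a count of 0 allows up to 3, and they were too low to test. Of the 4 other STAT genes tested here, 0 passed in edgeR, DESeq2 or limma-voom (1 at an unadjusted p under 0.05 in edgeR). Stat3, Stat5a, Stat5b and Stat6 had log2 fold changes of −0.07, 0.14, −0.20 and −0.09 in edgeR, with adjusted p from 0.141 to 0.783, and Stat3, Stat5b and Stat6 fell with the block. Stat4 had 5 counts over all libraries and was not tested.

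Of the other IRF genes tested here, 0 of 3 passed in edgeR (1 at an unadjusted p under 0.05, and 0 with DESeq2 and with limma-voom). Irf3, the factor that starts interferon production, was at 37.1 and 37.7 CPM on average (log2 fold change 0.02), and Irf2, a counterpart of Irf1, at 28.5 and 27.1 CPM (−0.07). Irf5 went from 1.58 to 2.42 CPM (log2 fold change 0.62, edgeR adjusted p = 0.0906) and rose with the block (adjusted p = 0.0140). Irf4 and Irf8 had 18 and 15 counts over all libraries and were not tested.

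Upstream of IRF3 and IRF7, 2 of 12 sensor and adaptor genes rose and 0 fell (6 rose and 2 fell with the block), beside 4.62% of all genes called upward in edgeR and 17.9% with the block. They were Ddx58, which encodes the RNA sensor RIG-I (log2 fold change 0.73, edgeR adjusted p = 0.00989), and Tlr3, the endosomal sensor of double-stranded RNA (0.26, adjusted p = 0.0298). Ddx58 passed in all 6 fits without one library and Tlr3 in 2. Among 14 negative regulators 3 were called, beside 9.55% of all genes (5 with the block, beside 36.1%). Usp18, which blocks the type I receptor at IFNAR2, rose (log2 fold change 1.47, edgeR adjusted p = 0.00775, and 0.0590 with no filter on low counts). Ptpn11, the phosphatase SHP2, fell (−0.28, adjusted p = 0.00485), as did Irf2bp2, a corepressor that binds IRF2 (−0.26, adjusted p = 0.0157), the latter in 4 of the 6 fits without one library. Socs1, the main feedback inhibitor of JAK kinases, was at 3.24 and 3.58 CPM (edgeR adjusted p = 0.787).

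Target genes of both interferon branches were mostly higher in siID4. Of 29 ISGF3 targets, 17 rose and 0 fell, with a median log2 fold change of 0.69. With the block 19 rose and 1, Oasl1, fell, and the calls of Oasl2 and Samd9l were lost (adjusted p = 0.0742 and 0.111). Of 22 interferon gamma targets, 19 rose and 1 fell, with a median of 0.65. With the block these counts were again 19 and 1, with the call of Irgm2 lost (adjusted p = 0.118) and that of Tap1 gained. The background is again 9.55% of all genes called in edgeR and 36.1% with the block, and the lists were drawn up with earlier results of these data known. Without siID4 replicate 2 the counts were 9 and 12, and without NT replicate 2 the second was 13. Calls over all genes were also fewer in those fits, 445 of 14168 and 631 of 14200. In edgeR without the block, 0 of the 9 signalling genes and 17 of the 29 ISGF3 targets were called, with median log2 fold changes of 0.21 and 0.69. In either direction, 7 of 9 and 24 of 29 had an unadjusted p under 0.05, beside 3567 of all 13941 genes tested. Groups did not overlap for 7 of 9 and 23 of 29, beside 30.9% of all genes. With the block, 5 of the 9 rose and 2 fell, while 19 of the 29 rose and 1 fell.

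Of the ISGF3 targets with the smallest adjusted p, Oas2 and Oas3, which make the activator of RNase L, rose by 1.91 and 1.20 on the log2 scale. Bst2, the antiviral membrane protein tetherin, rose by 1.27, Xaf1, a proapoptotic protein, by 1.17, Herc6, an ISG15 ligase in the mouse, by 0.94 and Ifi27 by 0.68. Of the interferon gamma targets, Gbp2 and Gbp7, guanylate-binding GTPases, rose by 1.16 and 1.11, and Tgtp1, a GTPase with a near-identical copy that makes its count uncertain, by 1.95. Psmb8 and Psmb10, subunits of the immunoproteasome, rose by 0.67 and 0.59, and Tapbp, which loads peptides on MHC class I, by 0.54. These 12 passed in all 6 edgeR fits without one library. Cxcl10, a chemokine, fell by 0.51 (edgeR adjusted p = 0.0362) and passed in 1 of those 6.

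**Figure D4:**
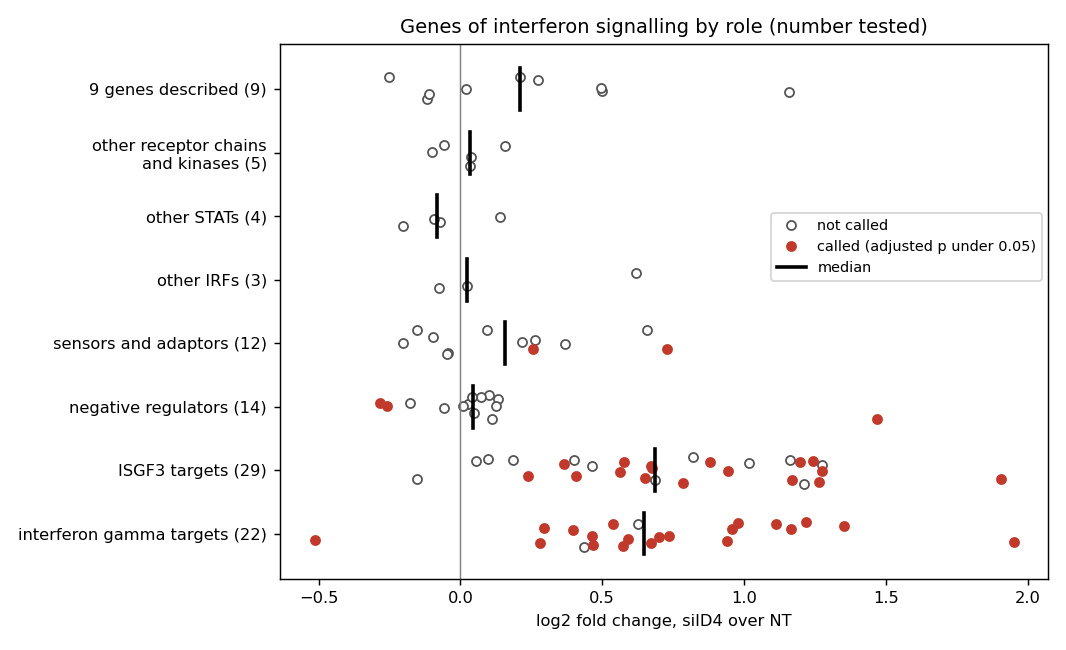
Log2 fold change (x axis, siID4 over NT) of each tested gene, by role in the pathway, with the number tested in brackets, filled points for genes called at an adjusted p under 0.05 and a bar at the median; vertical scatter has no meaning. The target lists lie mostly to the right with medians of 0.69 and 0.65, while the 9 genes described and the other kinases, STATs and IRFs shown hold no filled point.

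The target lists were spread among the NT libraries in the way of Irf7, Stat2 and Irf9. The ISGF3 targets summed to 1354, 1147 and 900.0 CPM in NT replicates 1 to 3 and to 1945, 1880 and 1740 CPM in siID4, and the interferon gamma targets to 1389, 1273 and 1122 CPM and to 1993, 1895 and 1808 CPM. NT replicate 1 was highest and NT replicate 3 lowest in both lists. What separates the NT libraries was not tested.

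Genes most like each of the 9 were sought by Pearson correlation of log2 CPM over the 6 libraries, among tested genes of at least 5 CPM. Since the 6 libraries hold both groups, the difference between groups is part of the likeness. Irf7 was most like Ly6e (0.998), an interferon-inducible surface protein gene, Clmn (0.998) and Ifit3 (0.998), an antiviral ISGF3 target. Stat2 was most like Cyp4v3 (0.997), Gbp4 (0.996), a guanylate-binding GTPase, and Pros1 (0.995). Irf9 was most like Haghl (0.999), Ddit3 (0.999), a stress-response factor, and Tor3a (0.995), and Irf1 like Grk5 (0.999), Gon4l (0.997) and Prkdc (0.996). Among the receptors, Ifnar1 was most like Paqr7 (0.982), Ubox5 (0.965) and Zbtb43 (0.953), and Ifnar2 like Fuca2 (0.996), Cth (0.991) and Slc25a44 (0.989). Ifngr1 was most like Ggta1 (0.997), Bdkrb2 (0.991) and Axl (0.989), and Ifngr2 like Afg3l1 (0.995), Prkcdbp (0.987) and Thyn1 (0.987). Jak1 was most like Itgav (0.999), Atp5l (0.998) and Fbxo45 (0.998). With only 6 libraries and a search over many genes, values near 1 are easily reached.

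Some of the 9 overlap other genes in GENCODE M21. Irf7 overlaps Phrf1 on the opposite strand, which had a log2 fold change of 0.07 at 129 and 135 CPM, and Irf9 overlaps Rnf31 on its own strand, with a log2 fold change of 0.26 at 23.7 and 28.4 CPM (edgeR adjusted p = 0.0989). Ifnar2 overlaps a predicted protein-coding gene on its own strand, and Irf1 and Jak1 also overlap other annotated genes. The strand setting of the counting is not given in the sources used here, and reads from shared stretches may have been counted for either gene. The expected counts of all 9 were whole numbers in every library.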

How the data were processed

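RNA sequencing libraries (poly(A)-selected, strand-marking kit, 1 µg of RNA, per the labels' protocols) were made for 6 samples. The authors deposited expected counts per gene with a gene length; cutadapt, STAR and RSEM with mm10 appear in the submitters' processing notes, without versions. Of all values per library, 10.0% to 10.6% were not whole (tolerance 0) and were rounded. Deposited lengths, another unit, served to compute TPM.

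Groups were compared by the quasi-likelihood test of edgeR (4.0.16, R 4.3.3; robust, TMM, filterByExpr, group only) over 13941 genes, with calls below 0.05 after Benjamini-Hochberg adjustment. SE and 95% intervals come from its F statistic. The biological coefficient of variation was 7.83%. Same-numbered libraries deviated together (correlation across genes 0.51, 0.16 and 0.45), so the replicate block is given beside the counts and named genes whose call it changed. Alternatives were other scalings and filters, DESeq2 1.42.0, limma-voom (limma 3.58.1), the block and leaving out each library. The script was tested on simulated data.

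Members and lists were chosen with earlier results of these data known. Named were all 9 members, Id4, called list genes (up to 6 per target list, plus those that fell), and the STAT, IRF and kinase or receptor genes tested here, and the 3 most correlated genes per member; other genes, and list genes outside this rule such as Socs1, were named after their values were seen. Coordinates come from GENCODE M21 on GRCm38 (25325 of 25655 genes matched). Listed genes without a row are not analysed here, and some STAT and IRF genes are not reported here and were left out of their lists' counts.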

Additional observations from a re-analysis of the deposited data

How the results depend on the processing

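Of the 9 genes, 0 were called by edgeR, 2 with library totals, 1 with no filter on low counts, 1 at a minimum mean of 5 CPM, 4 with DESeq2, 3 with limma-voom and 7 with the replicate block, and 0 to 3 without one library. Their log2 fold changes kept direction in all 14 alternatives, except Ifnar1 without siID4 replicate 2 (−0.0231, range without one library −0.0231 to 0.0661). Sign also changed without one library for Jak3 (−0.0289 to 0.126), Ifnlr1 (−0.0498 to 0.118), Stat5a (−0.0144 to 0.292), Stat3 (−0.201 to 0.0378) and Irf3 (−0.0528 to 0.159).

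Over all genes, 1331 were called (644 up, 687 down), 5038 with the replicate block, 445 to 1351 without one library, and 829 up and 564 down with library totals. DESeq2 called 1495 and limma-voom 1332. With no filter on low counts 1458 of 22677 genes were called, and at a minimum mean of 5 CPM 1242 of 10797. With the block, the counts were 3 for the other STATs, 1 for the other IRFs, 8 for sensors and adaptors and 5 for negative regulators. Without one library, sensors gave 1 to 2, ISGF3 targets 9 to 23 and interferon gamma targets 12 to 20. The causes were not tested. The 9 genes had at least 339 counts in every library, where counting error still adds to the spread, and interferon genes were below what could be tested.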
